A study of Bos taurus with 24 samples.

Results

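The Hippo pathway genes were followed in single bovine blastocysts. The genes were chosen by symbol, with earlier results of these data known. The list holds the transcriptional coactivators YAP1 and WWTR1 (also known as TAZ), the DNA-binding partners TEAD1 and TEAD4, the upstream regulators AMOT and NF2, the kinases LATS1 and LATS2, and the target genes CTGF and CYR61 (also known as CCN2 and CCN1). Of these 10 genes, 9 had a row of that symbol among the 24621 genes of the count table, and YAP1 is not analysed here. The row named TAZ belongs to tafazzin, which shares that name, and was not used for WWTR1.

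The Hippo pathway is a kinase cascade that controls where YAP1 and WWTR1 reside in the cell. NF2 and AMOT help to activate LATS1 and LATS2, which phosphorylate both coactivators and keep them in the cytoplasm. Where the cascade is inactive, the coactivators enter the nucleus, bind TEAD factors and switch on genes such as CTGF, CYR61 and LATS2 itself. In mouse embryos this pathway reads the position and polarity of a cell, and TEAD4 with nuclear YAP1 directs outer cells towards trophectoderm, the epithelium that later forms part of the placenta. Much of this control acts on the phosphorylation and location of proteins, which RNA counts do not measure.

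The 24 Holstein embryos were early blastocysts of IETS quality 1, the best class of the International Embryo Technology Society, and each was sequenced alone. In vivo derived embryos (A, 5 male and 3 female) were flushed from superovulated cows inseminated with semen of the bull whose sperm also fertilised the in vitro embryos, and cows were shared among embryos. Serum embryos (B, 3 male and 5 female) came from slaughterhouse oocytes matured and cultured with fetal bovine serum. Serum-free embryos (C, 5 male and 3 female) were matured with epidermal growth factor and cultured with albumin, insulin, transferrin and selenium. The cow, in vitro experiment and sequencing lane of each embryo were not given, so they could not be modelled, and the sexes were not evenly spread over the conditions. Whole embryos were lysed, so that fewer cells of a type and less RNA per cell cannot be told apart.

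Exon counts per embryo ranged from 3253051 to 9000447 (median 4454031), so that a single count stood for 0.111 to 0.307 CPM. Levels are in CPM, the counts of a gene scaled to a common library size, after TMM normalisation, and counting error is only part of the spread between embryos. Fold changes come from edgeR's quasi-likelihood test. A gene was tested where every embryo of at least 1 of the compared groups had at least 15 counts, and calls needed an adjusted p-value (Benjamini-Hochberg) under 0.05 together with at least a 2-fold difference. Levels of different genes were not ranked against each other, because counts also grow with transcript length.

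The serum embryos were not uniform. Over 6877 genes with a mean of at least 10 CPM, the root mean square log2 distance to the in vivo average was 0.900 in B1, 1.86 in B2, 1.24 in B3, 1.37 in B5 and 1.25 in B7. It was at most 0.763 in the other 3 serum embryos, which were all female, and at most 0.839 in the serum-free embryos. All 3 male serum embryos (B1, B5 and B7) were therefore among the 5 distant ones, and a difference between sexes in serum cannot be told apart from this distance. The comparisons of all serum embryos were repeated without these 5 embryos, which left 3 serum embryos. These 3 were all female, the groups set against them held both sexes, and sex was not modelled. In these fits the condition therefore cannot be told apart from the change in sex balance. The 5 embryos were also chosen by their distance to the in vivo average, so that leaving them out favours smaller differences from in vivo. A call lost in these fits therefore does not show that the difference was absent.

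**Figure D1:**
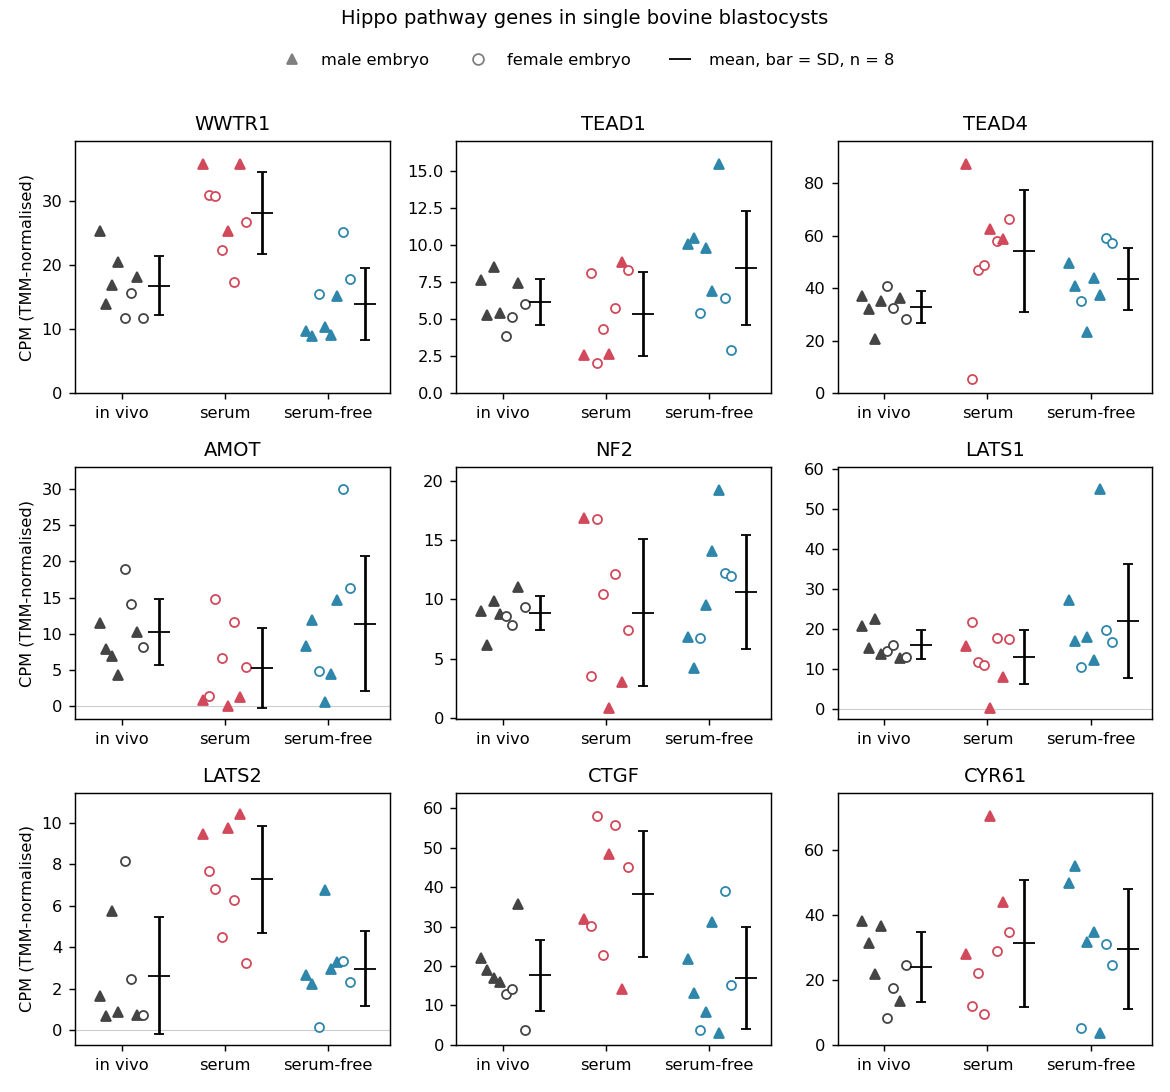
CPM (TMM-normalised) of the 9 measured genes in each embryo, in 3 conditions of 8 embryos, with triangles for male and open circles for female embryos, and the mean with SD beside them. The groups overlapped for every gene, serum embryos lay high for LATS2, CTGF and WWTR1, and AMOT was near 0 in 4 serum embryos and in the serum-free embryo C4.

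The coactivator WWTR1 was higher in serum embryos than in in vivo derived embryos, by less than the 2-fold limit. Its level was 11.8 CPM at the lowest, 16.3 at the median and 25.4 at the highest in vivo. In serum embryos it ran from 17.4 through a median of 28.8 to 35.8 CPM, and in serum-free embryos from 8.97 through 12.8 to 25.1 CPM. All 8 serum embryos lay above the in vivo median and 5 of 8 above the highest in vivo embryo, while 4 of 8 serum-free embryos lay below the lowest. The in vivo mean was 16.8 ± 4.61 CPM (SD, n = 8), the serum mean 28.2 ± 6.46 CPM (SD, n = 8) and the serum-free mean 14.0 ± 5.65 CPM (SD, n = 8). The log2 fold change of WWTR1 was 0.74 (SE 0.226, 1.67-fold, edgeR adjusted p = 0.0199) for serum over in vivo. The adjusted p-value stayed under the threshold whichever of the 16 embryos was left out, at 0.0400 or below, but it was 0.400 (log2 fold change 0.39) without the 5 distant embryos.

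TEAD4 and TEAD1 belong to the DNA-binding factors through which the coactivators reach their target genes, and neither passed the test between serum and in vivo derived embryos. TEAD4 ran from 20.6 through a median of 34.0 to 40.8 CPM in vivo, from 5.58 through 58.3 to 87.2 CPM in serum and from 23.3 through 42.5 to 59.2 CPM in serum-free medium. Of the serum embryos, 7 lay above the highest in vivo embryo and the remaining embryo, B2, lay below the lowest with 24 counts. The log2 fold change of TEAD4 was 0.71 (SE 0.323) for serum over in vivo and did not pass the test (edgeR adjusted p = 0.105). Without B2 it was 0.91 with an adjusted p-value of 0.00122, and without the 5 distant embryos it was 0.80 with an adjusted p-value of 0.0174, both under 2-fold. TEAD1 was spread from 3.84 to 8.50 CPM in vivo, from 2.05 to 8.88 CPM in serum and from 2.92 to 15.48 CPM in serum-free medium, and its log2 fold change of -0.21 (SE 0.343) in serum did not pass (edgeR adjusted p = 0.671).

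AMOT, an X-linked scaffold that binds both LATS kinases and the coactivators, was at or near 0 in some serum embryos and within the in vivo range in others. It ran from 4.27 through a median of 9.25 to 18.97 CPM in vivo, from 0 through 3.41 to 14.8 CPM in serum and from 0.562 through 10.2 to 30.0 CPM in serum-free medium. Of the serum embryos 4 lay below every in vivo derived embryo, with 3 counts in B1, 6 in B2, 0 in B5 and 4 in B7, and the other 4 had 30 to 67 counts. A count of 0 in B5 allowed a level of up to 0.333 CPM. The difference over all embryos was -0.96 on the log2 scale (SE 0.642, edgeR adjusted p = 0.267), with sex as a covariate it was -1.96 (adjusted p = 0.0357), and without the 5 distant embryos it was -0.38 (adjusted p = 0.611). B1, B2, B5 and B7 also had the fewest genes with a count of all 24 embryos, 11735 to 12390 against 12943 to 14732 in the others, and the part of this in the AMOT values was not tested. Near 0 too was the serum-free embryo C4, with 2 counts of AMOT (0.562 CPM) and 13146 genes with a count. NF2, the merlin scaffold upstream of the kinases, had an in vivo mean of 8.84 ± 1.45 CPM (SD, n = 8) and a serum mean of 8.89 ± 6.23 CPM (SD, n = 8). Of the serum embryos, 3 lay above and 3 below the whole in vivo range of NF2, and its log2 fold change was -0.0035 (SE 0.435, edgeR adjusted p = 0.996).

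Of the LATS kinases, which phosphorylate YAP1 and WWTR1, LATS2 was called higher in serum embryos and LATS1 did not pass. The difference between them was not tested. LATS2 ran from 0.702 through a median of 1.27 to 8.17 CPM in vivo, from 3.25 through 7.25 to 10.4 CPM in serum and from 0.169 through 2.82 to 6.74 CPM in serum-free medium. All 8 serum embryos exceeded the in vivo median, although A3 and A6 overlapped with them. The log2 fold change of LATS2 was 1.44 (SE 0.504, 2.72-fold, edgeR adjusted p = 0.0390) for serum over in vivo, and LATS2 was called. In vivo its median was 5 counts, and it passed the count limit through the serum group alone, so that its being tested depended on its level there. It kept its call in 6 of 16 fits that left out an embryo and lost it without A1, A2, A4, A7, A8, A9, B1, B3, B5 or B7, with adjusted p-values up to 0.0714. Without the 5 distant embryos its log2 fold change was 0.81 (adjusted p = 0.493).

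LATS1 had an in vivo mean of 16.0 ± 3.66 CPM (SD, n = 8), a serum mean of 12.9 ± 6.79 CPM (SD, n = 8) and a serum-free mean of 22.0 ± 14.3 CPM (SD, n = 8). Its lowest value was 0.115 CPM in the serum embryo B5, from 1 count in the most deeply sequenced library, and its highest was 55.1 CPM in the serum-free embryo C7. The log2 fold change of LATS1 in serum was -0.32 (SE 0.476, edgeR adjusted p = 0.643), and -0.07 (adjusted p = 0.900) without the 5 distant embryos. Within an embryo, the ratio of LATS2 to LATS1 counts (each plus 0.5) had a median of 0.0791 in vivo, 0.507 in serum and 0.143 in serum-free medium. LATS2 had more counts than LATS1 in 2 of 8 serum embryos, B5 and B7, and in 0 of the other 16 embryos.

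**Figure D2:**
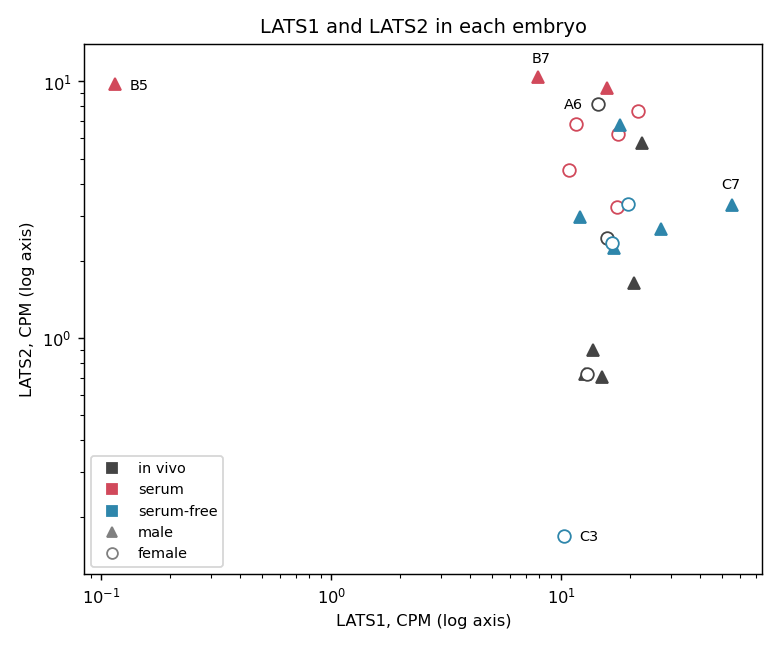
LATS1 against LATS2 in each of the 24 embryos, in CPM on log axes, with colours for the 3 conditions, triangles for male and open circles for female embryos. The serum embryos lie at 3.25 CPM of LATS2 or above, and B5 stands apart at 0.115 CPM of LATS1.

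The target genes CTGF and CYR61 encode secreted matricellular proteins, and their transcripts are widely used as readouts of nuclear YAP1 and WWTR1. CTGF was higher in serum embryos and was called. It ran from 3.85 through a median of 16.5 to 35.8 CPM in vivo, from 14.1 through 38.5 to 58.2 CPM in serum and from 3.05 through 14.2 to 39.2 CPM in serum-free medium. Of the serum embryos 4 of 8 exceeded the highest in vivo embryo, and 7 of 8 exceeded the in vivo median. The in vivo mean of CTGF was 17.6 ± 9.08 CPM (SD, n = 8) and the serum mean 38.3 ± 16.0 CPM (SD, n = 8), a log2 fold change of 1.12 (SE 0.354, 2.17-fold, edgeR adjusted p = 0.0242). The call was lost without A9, where the change fell under 2-fold (0.97), and without B3 (adjusted p = 0.0503). Without the 5 distant embryos the log2 fold change was 1.22 with an adjusted p-value of 0.0657.

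CYR61 was not called. Its in vivo mean was 23.95 ± 10.7 CPM (SD, n = 8), its serum mean 31.2 ± 19.5 CPM (SD, n = 8) and its serum-free mean 29.5 ± 18.5 CPM (SD, n = 8). Its log2 fold change in serum was 0.38 (SE 0.377, approximate 95% interval -0.363 to 1.11, edgeR adjusted p = 0.473), and it was 0.02 (adjusted p = 0.985) without the 5 distant embryos. B5 held the highest CYR61 of all embryos, 70.5 CPM, beside the lowest AMOT, NF2 and LATS1. C7 held the lowest CTGF and CYR61 beside the highest TEAD1, NF2 and LATS1.

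**Figure D3:**
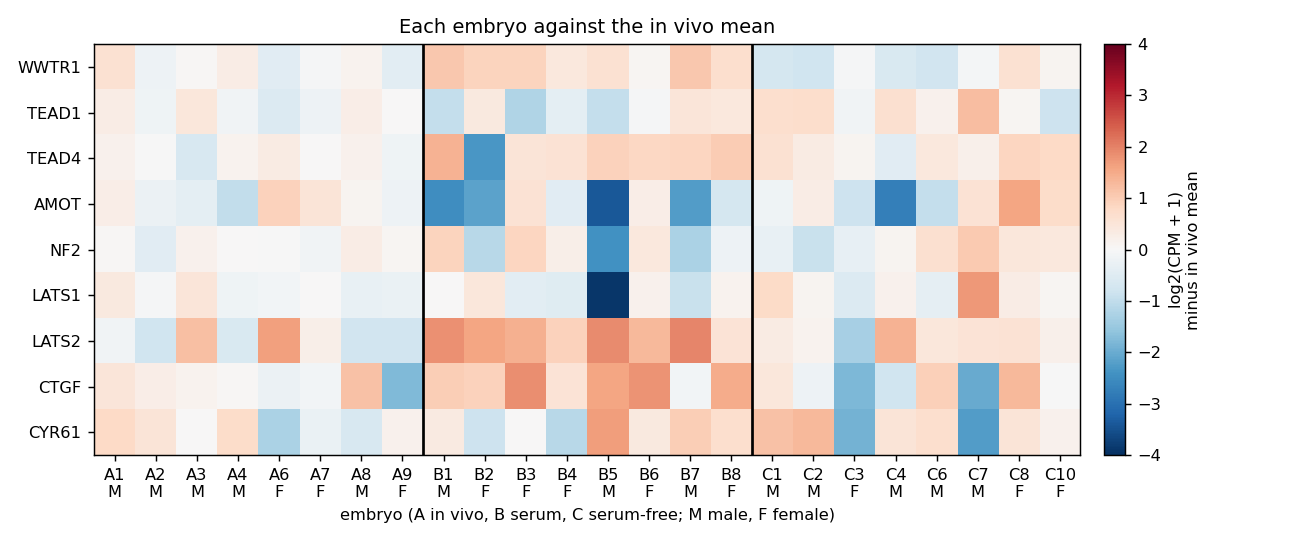
Each embryo against the in vivo mean, as log2(CPM + 1) minus the in vivo mean, with genes in rows and embryos in columns (A in vivo, B serum, C serum-free, M male, F female). B5 and C7 have opposite colours for NF2, LATS1 and CYR61, and AMOT is lowest in B1, B2, B5, B7 and C4.

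Of the 9 genes, all of which were tested between serum and in vivo derived embryos, 2 were called higher (LATS2 and CTGF) and 0 lower, beside 13.8% of all genes called in either direction and 6.43% called higher. With the adjusted p-value alone, 3 of 9 passed beside 28.3% of all genes. The groups overlapped in every one of the 9 genes, beside 6.98% of all genes without overlap. Without the 5 distant embryos 0 of the 9 were called with edgeR, in a fit where the calls among all genes also fell, from 1011 to 538. Only WWTR1, TEAD4, CTGF and CYR61 passed the count limit in both groups, TEAD1, AMOT, NF2 and LATS1 passed through the in vivo group, and LATS2 passed through the serum group, where it was high, so that of the 2 calls only CTGF was tested on a limit met by both groups. The median log2 fold change of the 9 genes was 0.38, and that of all genes tested was 0.01.

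Between serum-free and in vivo derived embryos 8 of the genes were tested and 0 were called with edgeR's quasi-likelihood test, beside 2.20% of all genes called. None of the 8 had an unadjusted p-value under 0.05, beside 21.5% of all genes, and edgeR's exact test and DESeq2 also called 0. The smallest p-value belonged to TEAD4, with a log2 fold change of 0.41 (SE 0.197, edgeR adjusted p = 0.235), and 5 of 8 serum-free embryos lay above its in vivo range. The approximate 95% intervals were -0.766 to 0.262 for WWTR1, -0.122 to 1.04 for TEAD1, -0.758 to 1.08 for AMOT, -0.282 to 0.818 for NF2, -0.123 to 1.04 for LATS1, -0.936 to 0.849 for CTGF and -0.525 to 1.15 for CYR61. The intervals of TEAD1, AMOT, LATS1 and CYR61 reached past 1, which is a doubling. The groups overlapped in every gene, beside 0.943% of all genes without overlap. LATS2 was not tested because neither group reached the count limit, with an in vivo mean of 2.63 ± 2.81 CPM (SD, n = 8) and a serum-free mean of 2.97 ± 1.83 CPM (SD, n = 8).

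The 2 culture conditions were also set against each other, which the study did not do, and this comparison shares its serum and serum-free embryos with those above. LATS2 was called, with a log2 fold change of 1.29 (SE 0.432, 2.44-fold, edgeR adjusted p = 0.0480) for serum over serum-free, the only call among 7 genes tested beside 8.91% of all genes. It again passed the count limit through the serum group alone, and its change was 0.65 with an adjusted p-value of 0.704 without the 5 distant embryos. The call held in 4 of 16 fits that left out an embryo (B4, B8, C3 or C4) and was lost in the others, with adjusted p-values up to 0.0796. WWTR1 fell just short of 2-fold (log2 fold change 0.99, SE 0.268, edgeR adjusted p = 0.0206), and it was called without B4, B5, B6, C3, C7, C8 or C10 but was 0.65 (adjusted p = 0.443) without the 5 distant embryos. CTGF had a fold change of 2.24 (log2 1.16, SE 0.451) and did not pass (edgeR adjusted p = 0.0816), although it was called without C8 (adjusted p = 0.0363), and without the 5 distant embryos it was 1.27 (adjusted p = 0.356). In the fit of all embryos CTGF too passed the count limit through the serum group alone, where it was high. AMOT and TEAD1 were not tested because neither group reached the count limit. The groups overlapped in every gene, beside 2.38% of all genes without overlap.

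**Figure D4:**
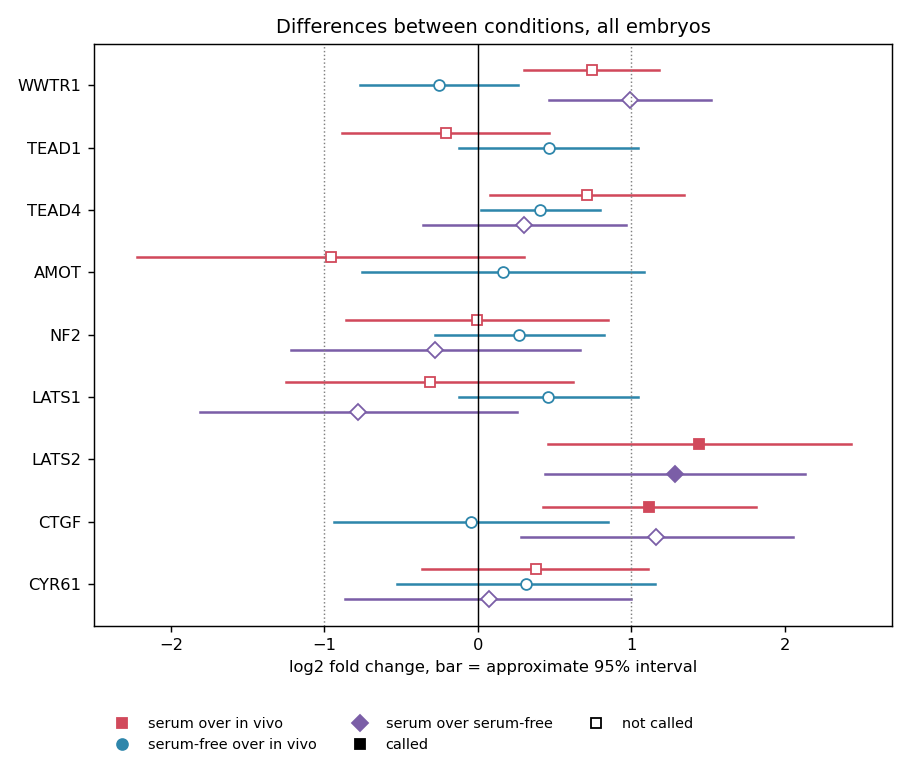
Log2 fold changes of the 9 genes with approximate 95% intervals in 3 comparisons of all embryos (squares serum over in vivo, circles serum-free over in vivo, diamonds serum over serum-free), filled where called, with dotted lines at 2-fold. LATS2 and CTGF are filled for serum over in vivo, at 1.44 and 1.12, and LATS2 for serum over serum-free, at 1.29.

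The serum comparison was repeated within each sex, because the sexes were unequally represented. In male embryos AMOT was 11.5, 7.89, 6.92, 4.27 and 10.3 CPM in vivo and 0.860, 0 and 1.23 CPM in serum, so that the groups did not overlap. Its log2 fold change was -3.77 (SE 0.911, edgeR adjusted p = 0.0152), from 3, 0 and 4 counts in serum, and it passed the count limit through the in vivo group alone. LATS2 was 0.702 to 5.73 CPM in the 5 male in vivo derived embryos and 9.46, 9.76 and 10.4 CPM in the 3 male serum embryos, again without overlap, with a log2 fold change of 2.31 (SE 0.691, edgeR adjusted p = 0.0370), and it passed the count limit through the serum group alone. TEAD4 was 20.6 to 36.9 CPM and 87.2, 62.4 and 58.8 CPM in the same groups, with a log2 fold change of 1.095 (SE 0.281, edgeR adjusted p = 0.0196). These 3 of 9 genes were called in males beside 13.3% of all genes, of which TEAD4 alone passed the count limit in both groups, and 3 of 9 did not overlap beside 26.2% of all genes. The 3 male serum embryos are the distant B1, B5 and B7, so that no fit of males without the distant embryos could be made. Leaving out any single male embryo kept AMOT called (log2 fold change -4.65 to -2.93), whereas LATS2 kept its call only without A3 or B1, and TEAD4 lost its call in these same 2 fits, in which it fell under 2-fold.

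In female embryos 0 of 9 genes were called with edgeR's quasi-likelihood test, beside 0.418% of all genes. CTGF was 13.0, 14.3 and 3.85 CPM in vivo and 30.2, 58.2, 22.9, 55.8 and 45.1 CPM in serum, without overlap, and its log2 fold change of 2.05 (SE 0.518, 4.13-fold) did not pass edgeR's test (adjusted p = 0.101). It was called by edgeR's exact test and by DESeq2, and also without B2 (adjusted p = 0.0331). Of the 9 genes 2 had an unadjusted p-value under 0.05 beside 21.1% of all genes, and 2 of 9 did not overlap beside 22.7% of all genes. AMOT was 18.97, 14.1 and 8.18 CPM in vivo and 1.395, 14.8, 6.68, 11.7 and 5.42 CPM in serum (log2 fold change -0.77, SE 0.642, edgeR adjusted p = 0.515).

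Whether the sexes answered differently was tested as the interaction of sex and culture. For AMOT the change in serum was 2.93 log2 units higher in females than in males (SE 1.17, unadjusted p = 0.0231), which edgeR's adjustment over 8446 genes brought to 0.888. For CTGF the same difference was 1.5 (SE 0.682, unadjusted p = 0.0418, edgeR adjusted p = 0.948), and for LATS2 it was -1.73 (SE 1.03, edgeR adjusted p = 0.996). With serum-free medium WWTR1 differed by 1.39 (SE 0.464, unadjusted p = 0.00753, edgeR adjusted p = 0.677). No gene of the table passed adjustment in either interaction with edgeR, where 436 and 555 genes (5.16% and 6.59%) had unadjusted p-values under 0.05, and DESeq2 called 14 and 5 genes, none of them in the list. A difference between the sexes was thus not shown for any of the 9 genes.

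Against in vivo derived embryos of the same sex, serum-free embryos had 0 of 8 genes called with edgeR in males (0.966% of all genes) and 0 of 8 in females (0.304%). At an unadjusted p-value under 0.05 these counts were 1 (18.0% of all genes) and 0 (14.0%). Between males and females, 0 of 8 genes were called in vivo (0.653% of all genes), 0 of 7 in serum (0.173%) and 0 of 8 in serum-free medium (0.139%), with the same result in edgeR's exact test and DESeq2. At an unadjusted p-value under 0.05 they were 1 in vivo (13.5% of all genes), 1 in serum (6.24%) and 2 in serum-free medium (8.01%). Under the count limit, and so not tested, were AMOT and TEAD1 in serum, and LATS2 in vivo and in serum-free medium. AMOT averaged 7.98 CPM in female and 0.695 CPM in male serum embryos. With at least 1 count in any embryo as the limit, its log2 fold change there was 3.60 (female over male, SE 1.28, edgeR adjusted p = 0.670). In vivo CTGF was higher in each of the 5 males (16.0 to 35.8 CPM) than in the 3 females (3.85 to 14.3 CPM), a female over male log2 fold change of -1.07 (SE 0.450, edgeR adjusted p = 0.317), and it was the only gene of the 8 without overlap, beside 9.96% of all genes. In serum-free medium WWTR1 ran from 8.97 to 15.2 CPM in males and from 15.6 to 25.1 CPM in females (female over male 0.87, SE 0.384, edgeR adjusted p = 0.610), where 2 of 8 genes did not overlap beside 6.68% of all genes.

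In the comparisons of all embryos, the other pathway genes that were called in serum were lower. The lists hold 86 further genes, of which 80 had a row. Between serum and in vivo derived embryos 44 were tested, with a median log2 fold change of -0.38. Of these, 0 were called higher and 7 lower (15.9%, beside 13.8% of all genes called in either direction and 7.34% called lower). Of these 7, MINK1, PRKCZ, VGLL1, SFN and MYOF passed the count limit through the in vivo group alone, where they were high, and INADL and EZR passed it in both groups. Without the 5 distant embryos 53 were tested, 0 were called higher and 6 lower, in a fit that called 538 of all genes tested. Within the sexes, 1 was called higher and 8 lower of 49 tested in males (18.4%, beside 13.3% of all genes), whose serum embryos are all distant. In females 0 of 49 were called with edgeR, beside 0.418% of all genes. Of these 49, 12 had an unadjusted p-value under 0.05, beside 21.1% of all genes. The gene called higher in males was AJUBA, a LIM protein that binds LATS kinases (log2 fold change 3.09, SE 0.922, edgeR adjusted p = 0.0363), which passed the count limit through the serum group alone. Between serum-free and in vivo derived embryos 47 were tested and 0 were called with edgeR, beside 2.20% of all genes. Of these 47, 1 had an unadjusted p-value under 0.05, beside 21.5% of all genes. Between serum and serum-free embryos 43 were tested and 7 were called, all lower in serum (16.3%, beside 8.91% of all genes called and 5.36% called lower). Of these, TNIK, SFN, TGFB2 and MYOF passed the count limit through the serum-free group alone, where they were high. MYOF alone was called without the 5 distant embryos.

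Among the kinases and adaptors that act beside LATS1 and LATS2, 1 of 9 tested was called between serum and in vivo derived embryos, beside 13.8% of all genes. This was MINK1, a kinase of the MAP4K group, with a log2 fold change of -1.096 (SE 0.387, edgeR adjusted p = 0.0407). Its relative TNIK was called between serum and serum-free embryos at -2.59 (SE 0.563, edgeR adjusted p = 0.00842) and against in vivo in males at -3.47 (SE 0.776, edgeR adjusted p = 0.0108). In the former comparison TNIK passed the count limit through the serum-free group alone. Over all embryos neither group reached the count limit for TNIK against in vivo, and without the 5 distant embryos it stood there at -1.03 (adjusted p = 0.437). STK3 and STK4, the kinases MST2 and MST1 that activate LATS1 and LATS2, stood at -0.50 (adjusted p = 0.174) and -0.03 (adjusted p = 0.928) in serum over in vivo, and their adaptor SAV1 at 0.21 (adjusted p = 0.795). STK3 was lower in serum than in serum-free medium at an adjusted p-value of 0.0343 but under 2-fold (-0.87). MOB1B, the LATS coactivator, was under the count limit, with means of 6.55, 3.65 and 7.04 CPM in vivo, in serum and in serum-free medium, and MOB1A is not analysed here.

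In the list of scaffolds and inputs, 0 of 8 tested genes were called with edgeR between serum and in vivo derived embryos, beside 13.8% of all genes. Of the 8, 3 passed the adjusted p-value alone (1 higher and 2 lower), beside 28.3% of all genes. An unadjusted p-value under 0.05 was found for 4, beside 41.2% of all genes. FAT1, an atypical cadherin, was 1 of those lower (-0.93, adjusted p = 0.0112) and was called without the 5 distant embryos (-1.25, adjusted p = 0.0198). The AMOT relatives AMOTL1 and AMOTL2 were under the count limit. The in vivo mean of AMOTL2 was 7.64 ± 4.49 CPM (SD, n = 8), its serum mean 5.82 ± 2.52 CPM (SD, n = 8) and its serum-free mean 6.63 ± 5.86 CPM (SD, n = 8).

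Of the cell polarity and junction genes, 3 of 14 tested were called lower in serum than in vivo, beside 7.34% of all genes called lower. INADL, the PATJ protein of the apical Crumbs complex, had an in vivo mean of 107.3 ± 26.6 CPM (SD, n = 8) and a serum mean of 19.4 ± 22.4 CPM (SD, n = 8), a log2 fold change of -2.47 (SE 0.477, edgeR adjusted p = 0.00128). PRKCZ, an atypical protein kinase C of the apical domain, had a log2 fold change of -1.54 (SE 0.424, edgeR adjusted p = 0.0115). EZR, the ezrin linker between membrane and actin, had a log2 fold change of -1.17 (SE 0.367, edgeR adjusted p = 0.0227). INADL and EZR were also called lower in serum than in serum-free medium, at -1.92 and -1.49. Without the 5 distant embryos INADL stayed called against in vivo (-1.55), and PRKCZ (-0.98) and EZR (-0.71) were under 2-fold.

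Among the other partners of TEAD factors, 1 of 2 tested was called between serum and in vivo derived embryos, beside 13.8% of all genes. VGLL1, a cofactor that binds TEAD factors in place of YAP1, had an in vivo mean of 11.1 ± 6.07 CPM (SD, n = 8), a serum mean of 0.829 ± 1.09 CPM (SD, n = 8) and a serum-free mean of 18.1 ± 24.2 CPM (SD, n = 8). Its log2 fold change for serum over in vivo was -3.65 (SE 0.691, edgeR adjusted p = 0.00114), and -2.55 without the 5 distant embryos. TEAD3 had an in vivo mean of 43.2 ± 8.78 CPM (SD, n = 8) and a serum mean of 23.4 ± 10.6 CPM (SD, n = 8), which passed the adjusted p-value (0.0335) but not 2-fold (-0.89), and it was called against serum-free medium (-1.06, SE 0.331, edgeR adjusted p = 0.0360). TEAD2 and VGLL4 were under the count limit, with 4.19 and 1.5 CPM on average in serum.

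SFN, the 14-3-3 sigma protein of a family that holds phosphorylated YAP1 in the cytoplasm, had a log2 fold change of -3.35 (SE 0.578, edgeR adjusted p = 0.000589). It was the only call among 8 tested genes of YAP turnover and retention, beside 13.8% of all genes. It was -2.35 (adjusted p = 0.00235) without the 5 distant embryos.

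The further targets that were called were lower in serum, unlike CTGF and LATS2, but few were tested and not all of those tested were lower. Of 17 other signature genes with a row, 3 reached the count limit between serum and in vivo derived embryos. Their median log2 fold change was 0.597, and 1 of the 3 was called, beside 13.8% of all genes. MYOF, a membrane repair protein of the ferlin family, was called lower, with an in vivo mean of 209.3 ± 43.9 CPM (SD, n = 8) and a serum mean of 25.8 ± 22.4 CPM (SD, n = 8). Its log2 fold change was -3.03 (SE 0.578, edgeR adjusted p = 0.00120), and -2.23 (adjusted p = 7.71e-05) without the 5 distant embryos. TGFB2, a growth factor, was called lower in serum than in serum-free medium (-2.37, SE 0.484, edgeR adjusted p = 0.00638). It passed the count limit through the serum-free group alone. ANKRD1, a well known target, was under the count limit, with means of 1.23, 2.92 and 5.56 CPM in vivo, in serum and in serum-free medium.

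**Figure D5:**
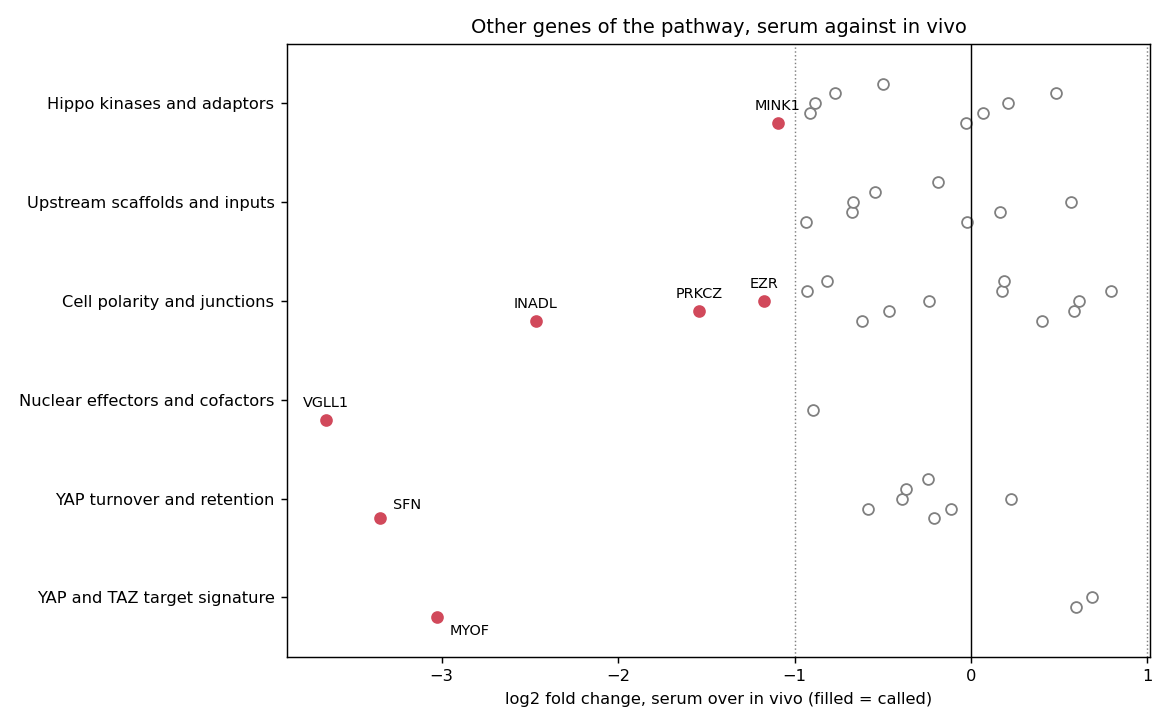
Log2 fold changes of serum over in vivo for the tested pathway genes outside the list of 9, 1 point a gene, in 6 lists, filled where called, with dotted lines at 2-fold. The filled points are MINK1, INADL, PRKCZ, EZR, VGLL1, SFN and MYOF, all below -1.

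Most tested markers of the trophectoderm were lower in serum embryos. The summed level of its 8 markers was 7470 to 14700 CPM in vivo, 315 to 5090 CPM in serum and 4990 to 28500 CPM in serum-free medium. Of 6 tested markers 5 were called lower in serum than in vivo (KRT8, KRT18, KRT19, GATA2 and GATA3, with log2 fold changes of -3.52 to -1.88), beside 7.34% of all genes called lower. KRT19, GATA2 and GATA3 passed the count limit through the in vivo group alone. The same 5 were called without the distant embryos, where TFAP2C, the tested marker that was not called, stood at -0.09 (edgeR adjusted p = 0.815). GATA3 averaged 83.7 CPM in vivo and 23.0 CPM in serum, a small part of the sums. CDX2 averaged 1.25, 0.519 and 0.750 CPM in vivo, in serum and in serum-free medium, under the count limit. The sums were 315 CPM in B2, 402 CPM in B7 and 469 CPM in B5, the lowest 3 of all embryos, and 1170 to 5090 CPM in the other serum embryos. All 8 serum embryos had lower sums than the in vivo derived embryos, also those with AMOT inside the in vivo range. The part of these markers in the LATS2, CTGF, WWTR1 and AMOT values was not tested.

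The 5 inner cell mass markers summed to 295 to 401 CPM in vivo, 277 to 630 CPM in serum and 186 to 449 CPM in serum-free medium. Between serum and in vivo derived embryos 1 of 3 tested was called, beside 13.8% of all genes. This was SOX2 (1.25, SE 0.404, edgeR adjusted p = 0.0271), which lost its call without the 5 distant embryos (0.56, adjusted p = 0.364), and POU5F1 stood at -0.55 (adjusted p = 0.0979). NANOG, which was not tested over all embryos, averaged 12.4 CPM in vivo and 63.6 CPM in serum, where it ran from 1.15 to 222.1 CPM. Without the 5 distant embryos it was tested and stood at 0.65 (edgeR adjusted p = 0.473). Between serum and serum-free embryos 1 of 4 tested was called, KLF4, higher in serum, beside 8.91% of all genes. KLF4 lost this call without the 5 distant embryos (0.44, adjusted p = 0.513). Cumulus cell markers summed to at most 47.4 CPM with PTX3 at 0 in all 24 embryos, and uterine markers to at most 9.12 CPM, of which LTF was up to 9.12 CPM in a serum-free embryo, which came to 41 counts. Of the cumulus markers, CYP19A1 had counts in all 24 embryos, from 2 counts in B7 to 154 counts in A2 (27.0 CPM). HAS2 was at up to 29.1 CPM (125 counts, in B2). The median cumulus sum was 18.3 CPM in vivo, 12.5 CPM in serum and 13.5 CPM in serum-free medium, and its part in the Hippo values was not tested.

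The 9 genes were also compared among themselves over the 24 embryos, after subtracting the mean of each condition from log2(CPM + 1). This is a description, since the values share libraries and depth. Of 36 pairs, NF2 and LATS1 had the highest Pearson correlation (r = 0.626, Spearman's rho = 0.389), and both were low in B5 and high in C7. AMOT and NF2 (r = 0.487) and CTGF and CYR61 (r = 0.485) followed. For the called genes, the most similar of the genes with a mean of at least 10 CPM were PRCC (r = 0.755) and RPS27A (r = 0.692) for LATS2, and DEADC1 (r = 0.682) and AKAP11 (r = 0.676) for CTGF.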

How the data were processed

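Per the labels and the methods of the study, RNA of each blastocyst was amplified with a SMARTer low-input kit, without strand marking. After trimming, the authors aligned reads to the UMD3.1 bovine genome with CLC Genomics Workbench and deposited raw counts of uniquely mapped exonic fragments per gene, without normalisation. All columns were matched to embryos by name, and condition and sex come from the labels. Gene lengths and quantitative PCR were not used here.

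The counts were tested with edgeR 4.0.16 (TMM, quasi-likelihood) in R 4.3.3, in fits of the compared groups, with Benjamini-Hochberg adjustment over all genes tested, at least 15 counts in every embryo of at least 1 group, adjusted p under 0.05 and at least 2-fold. Standard errors and 95% intervals are approximate (estimate and F statistic). The 10 comparisons were also computed with edgeR's exact test, DESeq2 1.42.0 and other limits, those of all embryos also with other normalisations and designs, and the 2 interactions with DESeq2 alone. The test was checked on simulated data with 200 genes changed 4-fold. Replicate numbers did not pair embryos (21 pairs, correlations -0.137 to 0.0922). No 2 embryos of a group agreed within sampling noise (chi-square per gene at least 15.1). The genes and lists were chosen with earlier results of these data known. Named were the list of 10, its relatives, further list genes called (up to 6 per list and comparison), marker genes, and for called genes of the list the 2 genes most alike across embryos. ANKRD1, AJUBA, FAT1, CYP19A1 and HAS2 were chosen after their values were seen.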

Additional observations from a re-analysis of the deposited data

Results flagged for a closer look

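Within each condition, the lowest and highest of 8 embryos were compared with the rest on the log2(CPM + 1) scale, for 27 groups of values, where about 1 in 20 groups stands out by chance. In 3 groups an embryo lay far from the others. TEAD4 in the serum embryo B2 (5.58 CPM, 24 counts) had a gap of 0.766 of the group's range. LATS1 in the serum embryo B5 (0.115 CPM, 1 count) had a gap of 0.692, and LATS2 in the serum-free embryo C3 (0.169 CPM, 1 count) had a gap of 0.540. B2 and B5 are among the 5 distant serum embryos. C3 had the lowest sum of inner cell mass markers, 186 CPM. The part of these in the gaps was not tested.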

How the results depend on the processing

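The alternatives for the 10 comparisons and 2 interactions gave 336 of 365 log2 fold changes of the Hippo genes on the same side of zero and of the call, and 550 of 624 with an embryo left out. Outside the comparisons of all embryos, these counts cover only WWTR1, TEAD4, AMOT, LATS2 and CTGF. The fits without the distant embryos and with thinned counts were added after the data had been seen. Causes of the moves were not tested, except that stricter count limits and left-out embryos leave fewer genes or embryos. LATS2, at 5 counts in the median in vivo derived embryo, was limited by depth.

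Between serum and in vivo derived embryos 2 Hippo genes and 1011 genes were called. The counts of Hippo genes were 1 with a limit of at least 1 count in any embryo, 1 with 15 counts in both groups, 1 with a single fit over all embryos, 1 with thinned counts and 0 without the 5 distant embryos, and they were 0 to 2 with an embryo left out. The counts of genes were 2074 without a fold limit, 544 with 15 counts in both groups and 538 without the 5 distant embryos. NF2 turned to 0.0114 with DESeq2, to 0.0107 with its size factors and to 0.17 without the 5 distant embryos, and ran from -0.21 to 0.21 with an embryo left out.

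Between serum-free and in vivo derived embryos 161 genes were called, against 426 without a fold limit, 94 with 15 counts in both groups and 72 with a single fit. CTGF turned to 0.0194 with sex as a covariate and ran from -0.34 to 0.19 with an embryo left out, and AMOT from -0.22 (without C8) to 0.35.

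Between serum and serum-free embryos 1 Hippo gene and 640 genes were called. The counts of Hippo genes were 2 with DESeq2, 2 without a fold limit and 2 with a single fit, and 0 with at least 1 count in any embryo, 0 with 15 counts in both groups, 0 with thinned counts and 0 without the 5 distant embryos. With an embryo left out they were 0 to 2. The counts of genes were 1171 without a fold limit, 366 with 15 counts in both groups, 9 without the 5 distant embryos, and 393 (without C7) to 784 with an embryo left out. CYR61 turned to -0.28 without the 5 distant embryos and ran from -0.20 to 0.28.

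The replicate numbers do not pair embryos. With the number as a replicate block, the Hippo genes called were 0 for serum over in vivo and 0 for serum over serum-free, and the genes called were 86 for serum-free over in vivo and 28 for serum over serum-free. In this block AMOT turned to -0.36 for serum-free over in vivo and CYR61 to -0.0466 for serum over serum-free.

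Within the sexes, genes called moved with the test. With edgeR's exact test and DESeq2 they were 467 and 585 for serum in females (34 in the quasi-likelihood test), where each also called 1 Hippo gene, CTGF. They were 199 and 201 for serum-free in males (74), 192 and 181 for serum-free in females (25), 119 and 116 between sexes in vivo (52), 62 and 97 in serum (13), and 53 and 57 in serum-free medium (11). DESeq2 gave 14 and 5 genes in the interactions (0). With at least 1 count in any embryo, the counts were 58 for serum in females, 232 for serum-free in females, 92 between sexes in vivo and 23 in serum-free medium. Without a fold limit they were 135 for serum-free in males and 100 between sexes in vivo.

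With an embryo left out, genes called ran from 658 (without B7) to 1755 (without B1) for serum in males, 2 to 446 for serum in females with 0 to 1 Hippo genes, 9 to 122 for serum-free in males, 1 to 18 for serum-free in females, 7 to 23 between sexes in serum and 8 to 17 in serum-free medium. For serum-free in males AMOT, at 0.00057, turned to -0.0019 in the exact test, -0.012 with DESeq2 and -0.056 with at least 1 count in any embryo, and ran from -0.35 to 0.28. For serum-free in females AMOT ran from -0.40 to 0.74 and CTGF from -0.17 to 1.37. Between the sexes TEAD4 ran from -0.0774 to 0.18 in vivo, and CTGF from -0.76 to 0.78 in serum-free medium.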
